A study of Homo sapiens with 2 samples.

Results

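Expression of the caspase genes and of CFLAR was compared between SUDHL6 and HT, established human cell lines from diffuse large B cell lymphoma that had received no treatment. Both were cultured in serum-supplemented RPMI medium that held antibiotics, and total RNA of each was hybridised to 1 Affymetrix exon array. The series title names a small-molecule inhibitor of PRC2, the Polycomb complex that methylates histone H3, and selective killing of lymphoma cells, and the arrays measured the baseline of both lines without the inhibitor. The labels say nothing of passage, clone or mutation state. The gene set was CASP1, CASP2, CASP4, CASP6, CASP8, CASP9, CASP10 and CFLAR, taken from probe sets that name exactly 1 gene. Of these 8 genes, 6 had such a probe set, among 14232 genes with a value of their own. CASP1 and CASP4 appeared only on probe sets shared with close relatives and are described apart.

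Caspases are proteases that are made as inactive precursors and cut their targets after aspartate residues. Initiator caspases are activated on assembly platforms: caspase-8 and caspase-10 at death receptors through the adaptor FADD, caspase-9 on the apoptosome built by APAF1 and cytochrome c, and caspase-2 on a complex of PIDD1 and CRADD. Effector caspases then take the cell apart, and inflammatory caspases drive pyroptosis and the release of interleukins. CFLAR, also called c-FLIP, resembles caspase-8 but lacks protease activity, and it holds back caspase-8 at the receptor. In germinal centre B cells, the normal counterpart of many of these lymphomas, c-FLIP is known to restrain death through FAS.

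The values are log2 expression values, 1 for each probe set and line. Without replicate arrays no difference could be set against replicate error, and none was tested. A dim level was set for each line at the 95th percentile of 225 olfactory receptor genes, a family assumed to be silent in lymphoma cells. It was 3.81 for SUDHL6 and 4.11 for HT. To be counted as higher in a line, a gene had to exceed the other line by at least 1 (log2) and to reach the dim level in that line. The differences of the olfactory receptor genes lay between -1.03 and 1.26 in their central 95%, which is the nearest measure of error for dim genes. All 7 general B cell markers and all 5 germinal centre markers with a value reached the dim level in both lines, as their labels as B cell lymphoma lines imply. In SUDHL6 and HT, CD79A stood at 6.47 and 6.58, MS4A1 at 11.33 and 8.75, SERPINA9 at 3.96 and 8.35 and GCSAM at 9.31 and 7.61, the last 3 counted as different.

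CASP6 and CFLAR were higher in HT, while the other 4 genes with a value of their own differed by less than 1 on the log2 scale. Of the 6 genes, 2 (33.3%) were counted as higher in HT, against 4.62% of all 14232 genes, and 0 as higher in SUDHL6, against 3.5% of all genes. Over the 9405 genes that reached the dim level, these backgrounds were 6.99% and 5.3%. SUDHL6 had the lower value for 5 of the 6, against 52.9% of all genes and 53.5% of those that reached the dim level. The median difference, SUDHL6 minus HT, was -0.33, beside -0.04 over all genes. In RNA of whole cultures, fewer cells that express a gene and less RNA per cell cannot be told apart.

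**Figure D1:**
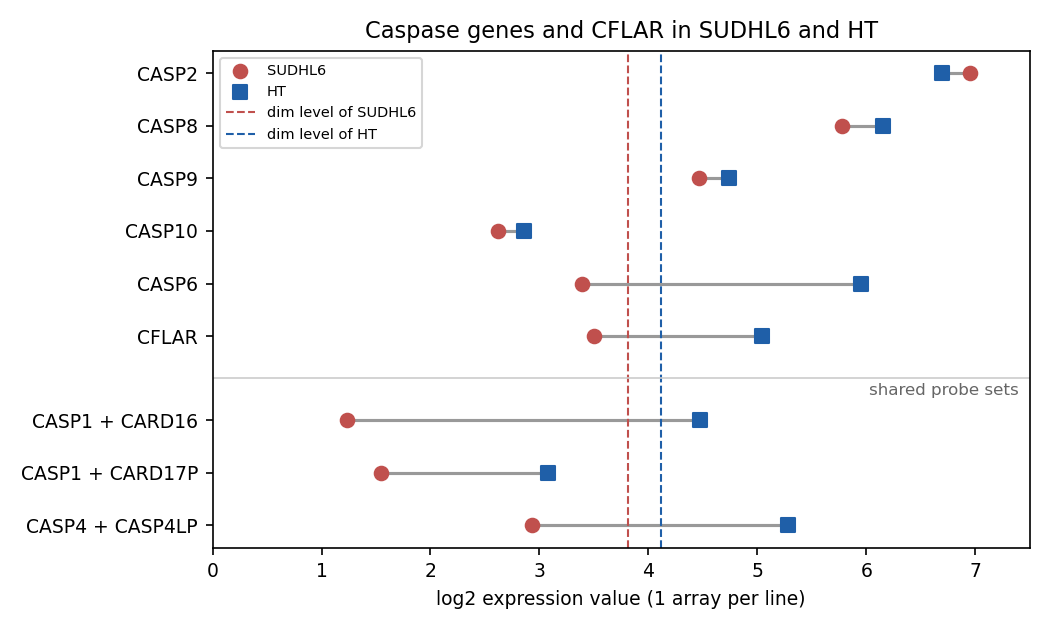
Log2 expression values of SUDHL6 (circles) and HT (squares) for each probe set, with 1 array per line and a grey line joining both values. Dashed lines mark the dim level of each line, at 3.81 and 4.11. CASP6, CFLAR and the shared probe sets of CASP4 with CASP4LP and of CASP1 with CARD16 cross from below the dim level in SUDHL6 to above it in HT.

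CASP6 encodes caspase-6, an effector caspase known for cutting nuclear lamins. Its value was 3.39 in SUDHL6 and 5.95 in HT, a log2 difference of -2.56. SUDHL6 was 0.42 under its dim level and HT 1.84 over its own. Set against the dim level of SUDHL6, CASP6 was at least 4.41-fold higher in HT. When values below the dim level were first raised to it, the difference of CASP6 was -2.14, and 90 (0.957%) of the 9405 genes that reached the dim level were as far or further toward HT. Among the 3087 genes within 0.5 of its mean level, the central 95% of differences ran from -1.59 to 1.72. Both differences of CASP6 lay outside this range. These 3087 genes were not raised, so only -2.56 is on the scale of this range.

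CFLAR encodes the inhibitor of caspase-8. Its value was 3.50 in SUDHL6 and 5.04 in HT, a log2 difference of -1.54. SUDHL6 was 0.31 below its dim level and HT 0.93 above its own. Set against the dim level of SUDHL6, the gene was at least 2.34-fold higher in HT. That dim level, 3.81, is lower than the 4.11 of HT, and above the latter the margin of CFLAR, 0.93, is under 1. Raising values to the dim level gave a difference of -1.23, and 389 (4.14%) of the genes that reached the dim level were then as far or further toward HT. The central 95% of the 3007 genes of similar mean level ran from -1.49 to 1.49, which holds the raised value but not -1.54. These 3007 genes were not raised, so only -1.54 is on the scale of this range. CFLAR transcripts code for long and short forms of the protein, and the single value of the gene does not separate them.

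Among the initiator caspases, CASP8, which starts the death receptor pathway, stood at 5.78 in SUDHL6 and 6.16 in HT. This is a log2 difference of -0.38, or 1.30-fold, and both values reached the dim level. CASP9, the caspase of the apoptosome, stood at 4.46 and 4.74 in the same order, a difference of -0.28, or 1.21-fold. CASP2 was the one gene of the 6 with the higher value in SUDHL6, at 6.95 against 6.69, a difference of 0.26, or 1.20-fold. All of these lay within the central 95% of genes of similar mean level, which was -1.59 to 1.53 for CASP8, -1.67 to 1.69 for CASP9 and -1.65 to 1.45 for CASP2. CASP10, a relative of CASP8 that is also recruited through FADD, was below the dim level in both lines, at 2.62 and 2.86. Such low values do not mean that the gene was silent.

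The products of CFLAR and CASP8 meet at the same receptor complex, and both genes lie beside CASP10 on chromosome 2. After values were raised to the dim level, their log2 differences were -1.23 and -0.38. That of CFLAR is measured from the dim level of SUDHL6, which is lower than that of HT. With 1 array per line, the gap between them was not tested.

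**Figure D2:**
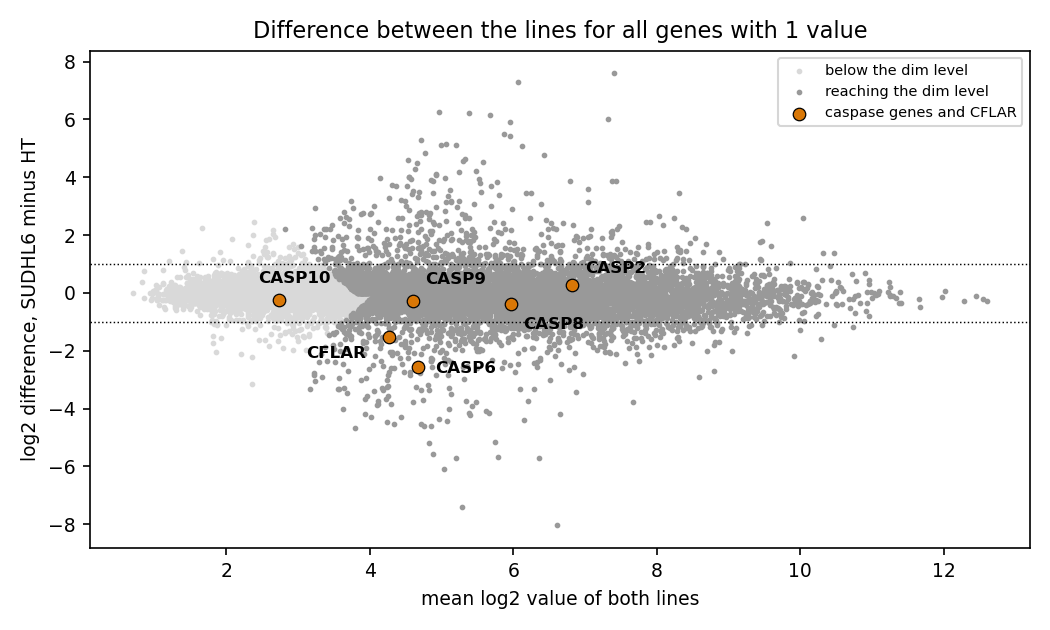
Log2 difference, SUDHL6 minus HT, against the mean log2 value of both lines for 14232 genes, 1 point per gene. Light grey points are genes below the dim level, darker points reach it, orange points are the 6 genes with a probe set of their own, and dotted lines mark a difference of 1 either way. CASP6 (-2.56) and CFLAR (-1.54) lie below the lower dotted line, and the other 4 lie between both lines.

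The inflammatory caspases CASP1 and CASP4 were measured by 3 probe sets that also name another gene, and all 3 had the lower value in SUDHL6. CASP4, which senses bacterial lipopolysaccharide inside cells, shared its probe set with CASP4LP. Its values were 2.93 for SUDHL6 and 5.29 for HT, a difference of -2.36, and the level in HT was at least 2.77-fold that in SUDHL6. CASP1, the protease that matures interleukin-1 beta and interleukin-18, shared 1 probe set with CARD16 and another with CARD17P. CARD16 encodes a CARD-only relative of caspase-1. The probe set shared with CARD16 stood at 1.23 and 4.48, at least 1.58-fold higher in HT when set against the dim level. The probe set shared with CARD17P stood at 1.55 and 3.08, below the dim level in both lines. These values cannot be given to CASP1 or CASP4 alone. With the shared probe sets counted, 4 of the 8 genes were higher in HT, against 4.62% of 18033 genes chosen in the same way. After values were raised to the dim level, the CASP1 and CARD16 probe set differed by -0.66 and that of CASP4 by -1.47.

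The other caspase genes with a value of their own were below the dim level in both lines. CASP5, an inflammatory caspase, stood at 1.73 in SUDHL6 and 1.96 in HT, CASP12 at 2.31 and 2.41, and CASP14, the caspase of the epidermis, at 2.03 and 2.28.

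Promoter sequences are shown for the 3 genes whose probe sets were higher in HT by more than 1 after values were raised to the dim level, CASP6, CFLAR and CASP4. The table of RefSeq promoters (GRCh38.p14) used here held 6 of the 8 genes, without CASP1 and CASP10. The 250 bases before the start furthest upstream are given, 5′ to 3′ on the strand of the gene: chr4:109703446-109703695 (minus strand) for CASP6, chr2:201118466-201118715 (plus strand) for CFLAR, which has 4 listed starts, and chr11:104968575-104968824 (minus strand) for CASP4. Capitals mark matches to the motifs named in the next paragraph. The arrays do not show which start was used.
CASP6: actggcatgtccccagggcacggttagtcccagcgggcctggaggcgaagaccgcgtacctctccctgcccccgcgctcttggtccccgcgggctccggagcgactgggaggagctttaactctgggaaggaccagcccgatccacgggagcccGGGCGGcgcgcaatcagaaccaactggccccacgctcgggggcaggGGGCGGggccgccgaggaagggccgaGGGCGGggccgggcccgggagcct
CFLAR: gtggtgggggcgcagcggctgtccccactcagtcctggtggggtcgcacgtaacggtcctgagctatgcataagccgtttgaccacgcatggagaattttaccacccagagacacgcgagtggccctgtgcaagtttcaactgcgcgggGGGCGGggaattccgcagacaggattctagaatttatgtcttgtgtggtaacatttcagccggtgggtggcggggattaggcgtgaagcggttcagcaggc
CASP4: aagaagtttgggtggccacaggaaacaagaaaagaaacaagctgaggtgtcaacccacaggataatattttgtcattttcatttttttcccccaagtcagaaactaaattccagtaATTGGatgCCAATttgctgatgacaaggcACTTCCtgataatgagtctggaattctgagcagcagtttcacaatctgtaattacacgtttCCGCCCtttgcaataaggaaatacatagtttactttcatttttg

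All 3 windows held a GC box. The motif GGGCGG was found 3 times before CASP6, starting 96, 50 and 24 bases before the start, 1 time before CFLAR (101 bases) and 1 time before CASP4 (44 bases). Of 27305 promoters of the same length, 42.2% held it, and so did those of CASP2, CASP8 and CASP9. CCAAT was matched 2 times before CASP4, at 134 and 126 bases, and is found in 33% of promoters. GGAAGT, the core of ETS factor sites, was matched 1 time before CASP4, at 105 bases, and is found in 19.9%. The STAT site TTCNNNGAA (6.76% of promoters) and TATAAA (11.2%) were not matched in the 3 windows. Both strands were searched, and matches of different motifs did not overlap. The number of CpG dinucleotides was 26 for CASP6, 17 for CFLAR and 2 for CASP4, beside a median of 10 over all promoters and quartiles of 3 and 23. Among the genes that differed by less than 1, it was 29 for CASP2, 25 for CASP9 and 6 for CASP8. A match describes letters and does not show that a factor binds.

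The neighbours of CASP6 and CFLAR along the chromosome mostly differed by less than the genes themselves. The 10 nearest genes with a value around CASP6 on chromosome 4 had a median difference of -0.15. SEC24B, which encodes a coat protein of transport vesicles and lies next to CASP6 in this order, was also counted as higher in HT, at 6.44 in SUDHL6 and 8.09 in HT. The 10 neighbours of CFLAR on chromosome 2, which include CASP10 and CASP8, ran from -0.61 to 0.10, with a median of -0.28. Of these 10, 0 were counted as different, against 4.62% (HT) and 3.5% (SUDHL6) of all genes. For 8 of the 10 the value was lower in SUDHL6, against 52.9% of all genes.

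Around CASP4 and CASP1 on chromosome 11, several neighbours were also higher in HT. Of the 10 nearest genes of CASP1, 4 were counted as higher in HT and 0 as higher in SUDHL6, against 4.62% and 3.5% of all genes. DCUN1D5 stood at 6.95 in SUDHL6 and 8.83 in HT, PDGFD, a growth factor gene, at 5.73 and 7.17, and DDI1 at 3.09 and 4.12, while CWF19L2 differed by -1.55. DDI1 barely reached the dim level, and its difference was -0.31 once values were raised. Because the dim level is higher for HT, raising alone gives -0.30 to a gene below it in both lines, such as CASP12. The genes CASP12, CASP5 and CARD18, which lie within the caspase cluster, did not reach the dim level in either line. The part of the neighbouring genes' shift in the difference of CASP4 was not tested. The neighbours of CASP2 on chromosome 7 and of CASP9 on chromosome 1, 10 each, included 0 genes counted as different, against the same 4.62% and 3.5%.

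**Figure D3:**
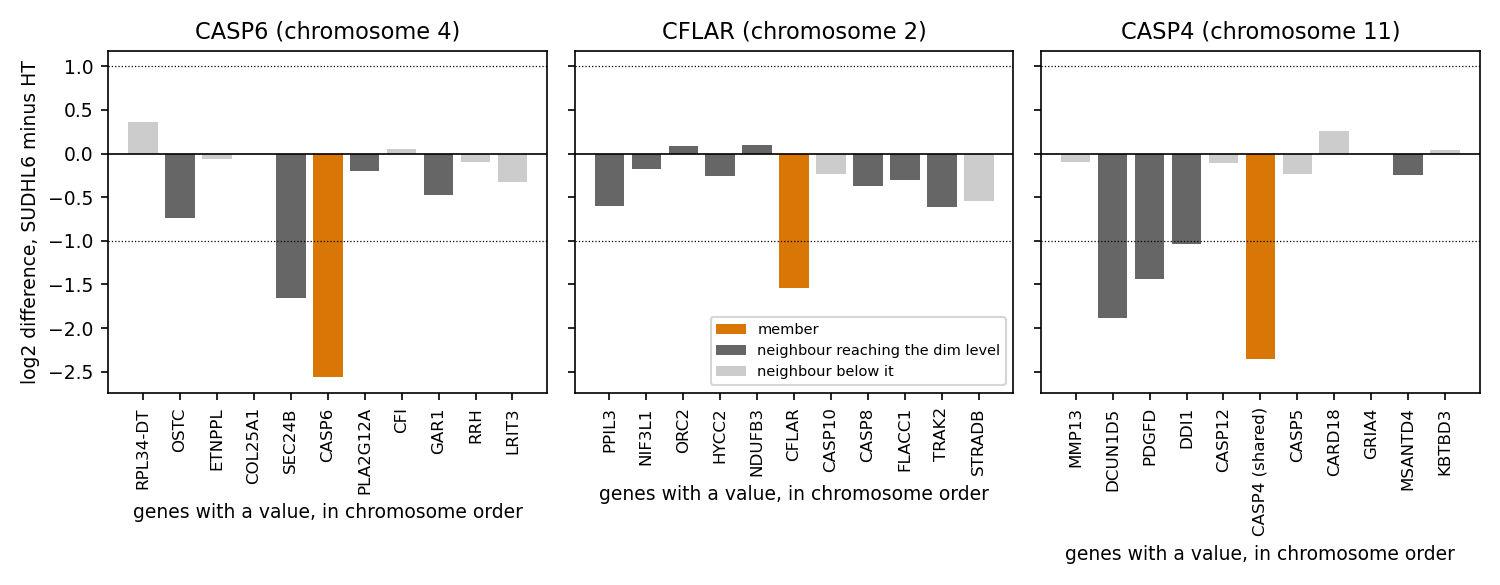
Log2 difference, SUDHL6 minus HT, of CASP6, CFLAR and the CASP4 probe set (orange bars) and of the 5 nearest genes with a value of their own on each side, in chromosome order. Dark grey bars are neighbours that reach the dim level, light grey bars are those that do not, and dotted lines mark a difference of 1. CFLAR stands alone past -1 in its panel, CASP6 is joined by SEC24B, and CASP4 by DCUN1D5, PDGFD and DDI1, whose difference is -0.31 with values raised to the dim level.

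Upstream of the initiator caspases, 4 of 9 measured death receptor and ligand genes reached the dim level and 0 were counted as different. In lists this short such a count is close to the background of 6.99% (HT) and 5.3% (SUDHL6) of genes that reached the dim level. The TRAIL receptor genes TNFRSF10A and TNFRSF10B stood at 5.02 and 4.85 in SUDHL6 and at 5.62 and 5.37 in HT. The list had a median of -0.03. FAS was below the dim level in both lines, at 3.27 and 4.06. The TRAIL gene TNFSF10, at 3.43 and 2.21, was below it too.

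Adaptors and modulators of the receptor complexes held 4 genes higher in HT and 0 higher in SUDHL6, of 11 that reached the dim level, against the same 6.99% and 5.3%, with a median of 0.01 over all 14. FAIM, an inhibitor of death through FAS, stood at 1.84 in SUDHL6 and 6.03 in HT and was at least 4.64-fold higher in HT. CYLD, a deubiquitinase that acts on the TNF receptor complex, stood at 4.51 and 6.11 and was 3.02-fold higher in HT. PEA15, a death effector domain protein like CFLAR, stood at 6.32 and 7.35 and was 2.04-fold higher. CRADD, the adaptor of caspase-2, stood at 2.57 and 4.39 and was at least 1.49-fold higher in HT, so its difference was under 1 once values were raised to the dim level. FADD, the adaptor of caspase-8, stood at 5.10 and 5.27. PIDD1, the other partner of caspase-2, had the same value of 4.87 in both lines. Exact ties occurred for other genes too, such as ACIN1 at 6.04, so the tie does not show equal expression. The genes higher in HT thus include an inhibitor of death and an adaptor of a caspase.

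The apoptosome and mitochondrial list had 0 of 10 genes counted as different, against 4.62% (HT) and 3.5% (SUDHL6) of all genes, and a median of -0.06. APAF1 stood at 5.77 in SUDHL6 and 5.92 in HT, cytochrome c (CYCS) at 8.24 and 7.78, and AIFM1 at 8.84 and 8.87. FADD, PIDD1 and APAF1 fall outside the rule for named genes and are given as the platforms of the initiator caspases. Of 8 genes of the inhibitor of apoptosis family and its regulators, 1 was counted as higher in SUDHL6 and 0 as higher in HT, against the same shares. It was BIRC6, a very large ubiquitin ligase, 3.85-fold higher in SUDHL6, at 8.01 against 6.06. The other 7 had a lower value in SUDHL6, each by less than 1, as did 52.9% of all genes by any amount. Among these 7, BIRC8 was below the dim level in both lines, at 2.33 and 2.45. The median of the list was -0.42. XIAP, a direct inhibitor of caspase-9, stood at 3.93 and 4.42.

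AIM2 and IL18 had the largest differences among 13 measured inflammasome genes, in opposite directions. Of the 13, 2 were counted as higher in SUDHL6, against 3.5% of all genes, and 1 as higher in HT, against 4.62%. Another 6 reached the dim level and differed by less than 1, and 4 were below it in both lines. The list had a median of 0.09. AIM2, a sensor of cytosolic DNA that activates caspase-1, stood at 9.31 in SUDHL6 and 5.43 in HT, 14.7-fold higher in SUDHL6. IL18, whose product caspase-1 cuts, stood at 2.29 and 6.57 and was at least 6.77-fold higher in HT. NLRC4, another sensor, stood at 4.05 and 3.03, and its difference was -0.06 once values were raised to the dim level. This sign arises because the dim level of HT, 4.11, lies above the value of NLRC4 in SUDHL6. The adaptor gene PYCARD stood at 4.62 and 4.53. Thus the sensor gene AIM2 was higher in SUDHL6, while the substrate gene IL18 was higher in HT. The probe set of CASP1 and CARD16 was also counted as higher in HT, but its difference was -0.66 once values were raised to the dim level.

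Genes of caspase substrates mostly differed by less than 1. Of the 16 measured, 13 reached the dim level, 1 was counted as higher in SUDHL6 and 0 as higher in HT, near the background of 5.3% and 6.99%, and the median was -0.10. The exception was VIM, an intermediate filament gene, at 8.72 in SUDHL6 and 4.86 in HT, 14.5-fold higher in SUDHL6. LMNA, whose product is a known target of caspase-6, stood at 4.79 and 4.88. In the list of the paracaspase MALT1 and CARD signalling, 7 of 9 genes reached the dim level. Of these 7, 0 were counted as different, against the same 5.3% (SUDHL6) and 6.99% (HT), and the median of all 9 was -0.24. MALT1 stood at 6.31 and 6.24 and NFKB1 at 6.21 and 6.51.

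**Figure D4:**
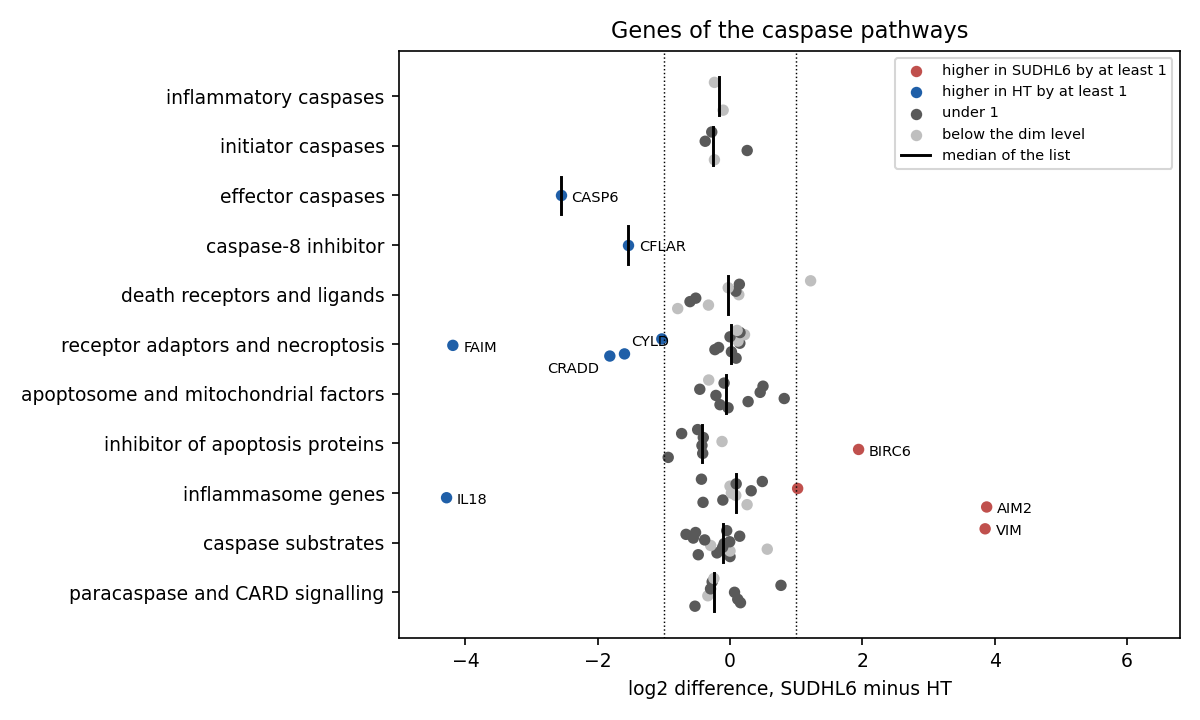
Log2 difference, SUDHL6 minus HT, of each gene in the caspase pathway lists, 1 point per gene, with the median of each list as a black bar and dotted lines at a difference of 1. Red and blue points are counted as higher in SUDHL6 and HT, dark grey points differ by less than 1 and light grey points are below the dim level. Names mark genes with a difference of at least 1.5, among them FAIM and IL18 toward HT and AIM2, VIM and BIRC6 toward SUDHL6.

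Among markers of other cell types, only genes of 1 list were counted as different. Of 7 fibroblast and endothelial genes, 2 were counted as higher in HT, against 4.62% of all genes, and 0 as higher in SUDHL6, against 3.5%. The 2 were LUM (2.38 in SUDHL6 and 6.22 in HT) and DCN (2.09 and 5.05). COL1A1 (4.47 and 4.44) and COL1A2 (4.55 and 4.61) differed by less than 1. PECAM1, VWF and CDH5 were below the dim level in both lines. In the T cell, NK cell, myeloid and epithelial lists 0 of 27 measured genes were counted as different, against the same 4.62% and 3.5%. Of the 27, 12 reached the dim level. KRT8 (8.27 and 8.12), KRT14 (5.42 and 6.11), KRT19 (4.48 and 4.53), CD68 (5.53 and 5.95), CD7 (5.49 and 5.73), CD247 (4.74 and 5.69), NKG7 (4.91 and 5.30) and CD8A (4.40 and 4.25) did so in both lines, whereas CD3D, CD3E, CD3G and CD14 did not in either. Any part of such cells in the values of CASP6 and CFLAR was not tested.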

How the data were processed

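The authors deposited log2 expression values for 22011 probe sets, 1 column per line. Per the submitters' processing notes, they used RMA and Affymetrix Expression Console, and no source used here gives versions, settings or genome build. RMA corrects background, normalizes arrays and summarises probes. It is known to shrink differences of dim genes. Probe sets were named from GEO's platform annotation (14432 with 1 gene, 2408 with several, 5171 unnamed here), with 14404 symbols matched by gene number to RefSeq GRCh38.p14. A gene took its probe set of highest mean, and each of the 6 genes described had 1. Folds were computed from log2 differences, against the dim level of the line with the lower value ("at least") where that value was below it.

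The genes and lists were chosen with earlier results of these data known. Named genes are the 6, up to 4 counted genes of each list with the largest difference (the 2 of highest mean where none was counted) and counted neighbours. CD79A, FAS, TNFSF10, FADD, PIDD1, APAF1, XIAP, PYCARD, LMNA, CASP14 and the markers of other cell types were added after their values were seen. Likeness of pattern to other genes was not computed, since there are 2 arrays. Python 3.11.15, pandas 2.3.3 and numpy 2.4.6 were used, and the steps were tested on simulated data. Alternatives covered the scaling, the probe set, the dim level and the size of the difference.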

Additional observations from a re-analysis of the deposited data

How the results depend on the processing

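CASP6 and CFLAR were counted as higher in HT, and no gene of the set as higher in SUDHL6, under quantile, loess and median scaling. The same held with a dim level at the 99th percentile, with raised values and with a difference of at least 1.5. It also held with both other choices of probe set, a dim level at the 90th percentile, no dim level and a difference of at least 0.5. Those choices of probe set could not change the values, since each of the 6 genes had 1. The looser rules could not drop a gene already counted. With raised values, the count of CFLAR rests on the lower dim level of SUDHL6, since its value in HT was 0.93 above the dim level of HT. At a difference of at least 2 the count was 1, CASP6. With probe sets naming several genes included it was 4, with CASP1 and CASP4, and the median difference moved from -0.33 to -0.96. Over 8 alternatives the difference of CASP6 ran from -2.56 to -2.14 and that of CFLAR from -1.54 to -1.23, and none of the 6 genes changed sign. The alternatives of probe set among these 8 left the differences of the 6 genes unchanged. Moves were judged against 0.63, the SD of the olfactory receptor genes' differences, since replicates do not exist. No paired analysis was possible because each line has 1 array. The number of arrays limits the precision of every value, and dim genes lie closest to background.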

Other observations

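Besides CASP1, CASP4 and CARD16, 7 other genes of the caspase pathways were measured only on probe sets that name another gene as well, and these 7 differed by less than 1 between the lines. ROCK1, a kinase cut by caspases, stood at 9.07 in SUDHL6 and 8.83 in HT on a probe set shared with its pseudogene ROCK1P1. The nuclear lamin gene LMNB1 stood at 8.58 and 8.24 with PCIF1, and the nuclease gene ENDOG at 5.01 and 4.59 with SPOUT1. The scramblase gene XKR8, whose product is activated by caspase cleavage, stood at 4.91 and 4.50 on one shared probe set and at 4.04 and 3.92 on the other. TNFRSF25, a death receptor gene, stood at 5.89 and 6.14 with PLEKHG5. CARD9 with DNLZ had the same value of 4.48 in both lines, an exact tie like that of PIDD1. NLRP1, a sensor of the inflammasome, was below the dim level in both lines on a probe set shared with another gene, at 3.61 and 3.66.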
